A study of Mus musculus with 8 samples.

Results

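The genes described here are 39 genes of glycolysis and of the response to hypoxia-inducible factor (HIF), taken from the mouse ventricles at embryonic day 9.5 by their gene symbols from a fixed list. They comprised 17 glycolytic enzymes, 3 sugar and lactate transporters, 3 regulators of glycolytic flux and 16 other HIF targets, of 53465 genes in the table. A second gene identifier also bore the symbol *Aldoa*, and the row with nearly all of the *Aldoa* counts was used. Polyadenylated RNA was sequenced in single reads from 4 wild-type samples (WT_1 to WT_4) and 4 samples of the genotype Nrg-1flox;Tie2-Cre (KO_1 to KO_4). *Nrg1* encodes neuregulin-1, a ligand that endocardial cells send to the myocardium. Cre expressed from the *Tie2* promoter acts in endothelial cells, the endocardium included, and also in much of the blood lineage. The labels do not say whether WT embryos carried a floxed allele or Cre, nor whether a sample was 1 embryo or a pool, so that p-values measure the spread between these samples, which may be technical.

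Glycolysis splits glucose into pyruvate in the cytosol, and lactate dehydrogenase turns pyruvate into lactate. HIF is a pair of proteins, an oxygen-regulated alpha subunit and ARNT, that binds DNA when oxygen is low. Prolyl hydroxylases mark the alpha subunit for the VHL ligase when oxygen is present. Many glycolytic genes are HIF targets, as are genes of oxygen sensing, mitochondrial turnover, collagen hydroxylation and growth control, and the early embryonic heart is known for a largely glycolytic metabolism.

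Total expected counts were between 11852372 and 14360323 in WT and between 12430368 and 14223860 in KO. *Nrg1* (chromosome 8, 31814551 to 32884029, minus strand, GRCm38) had 61, 59, 71 and 72 counts in KO_1 to KO_4 and 156, 131, 121 and 173 in WT_1 to WT_4, so that each KO sample was below each WT sample. The summed level of 12 cardiomyocyte markers was between 36905 and 41662 CPM (counts scaled to a common library size) in the 8 samples. One library stood apart. KO_1 differed from the other KO samples by a chi-square over degrees of freedom of 30.7 to 52.7, against 4.67 to 14.5 among KO_2, KO_3 and KO_4 and 3.77 to 6.14 among WT samples. Hemoglobin genes took 6.26% of the counts of KO_1, 1.93% to 3.89% of those of the other KO samples and 0.671% to 0.799% in WT. Mitochondrial genes took 2.03% of the counts of KO_1, 2.54% to 2.84% in the other KO samples and 2.54% (WT_3) to 3.03% in WT. Fits without hemoglobin and mitochondrial genes are given in the last section, and what the lower share of KO_1 reflects was not tested. The summed level of 12 erythroid markers was 68838, 19896, 40304 and 41310 CPM in KO_1 to KO_4 and between 6714 and 8119 CPM in WT, and each of the 12 was higher in KO with and without KO_1. Counts of called genes and the main fold changes are therefore given with all 8 samples and without KO_1. In bulk tissue, fewer cells of a type and less RNA per cell cannot be told apart.

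HIF binds DNA at short motifs, ACGTG and the related GCGTG, and the promoters of some members are shown for where these letters lie in members that passed the test of KO against WT and in members that did not. The windows hold the 250 bases before a RefSeq transcription start (build GRCm38.p6), written 5′ to 3′ on the strand of the gene, with each ACGTG or GCGTG on either strand in capitals (on the opposite strand these read CACGT and CACGC, and the overlapping match CACGTG counts on both strands). Of the 39 members 34 had an entry, and *Slc2a3*, *Ndrg1*, *Ero1l*, *Bhlhe40* and *Hmox1* had none. *Ldha* (chr7:46845554-46845803, plus strand) and *Pgk1* (chrX:106186850-106187099, plus strand) represent the enzymes with several ACGTG matches. *Slc2a1* (chr4:119108495-119108744, plus strand) and *Pfkfb4* (chr9:108991652-108991901, plus strand) represent members that were higher in KO. *Bnip3* (chr7:138909507-138909756, minus strand), *Egln3* (chr12:54203875-54204124, minus strand) and *Ankrd37* (chr8:45999851-46000100, minus strand) represent the other HIF targets, and in *Egln3* and *Ankrd37* KO_1 was several times the next sample.
Ldha: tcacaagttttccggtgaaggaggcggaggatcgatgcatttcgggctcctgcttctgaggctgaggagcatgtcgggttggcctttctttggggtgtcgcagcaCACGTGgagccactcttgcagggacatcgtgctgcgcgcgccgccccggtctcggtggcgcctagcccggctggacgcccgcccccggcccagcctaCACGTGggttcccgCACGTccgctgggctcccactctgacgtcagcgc
Pgk1: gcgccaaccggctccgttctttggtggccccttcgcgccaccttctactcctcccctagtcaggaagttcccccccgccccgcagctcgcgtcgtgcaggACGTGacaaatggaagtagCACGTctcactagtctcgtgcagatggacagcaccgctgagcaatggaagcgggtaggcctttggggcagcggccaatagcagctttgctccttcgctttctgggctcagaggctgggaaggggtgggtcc
Slc2a1: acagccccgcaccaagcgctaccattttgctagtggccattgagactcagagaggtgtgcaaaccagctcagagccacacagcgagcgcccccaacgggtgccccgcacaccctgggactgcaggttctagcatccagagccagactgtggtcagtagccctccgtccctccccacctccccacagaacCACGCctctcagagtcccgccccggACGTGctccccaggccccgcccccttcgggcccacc
Pfkfb4: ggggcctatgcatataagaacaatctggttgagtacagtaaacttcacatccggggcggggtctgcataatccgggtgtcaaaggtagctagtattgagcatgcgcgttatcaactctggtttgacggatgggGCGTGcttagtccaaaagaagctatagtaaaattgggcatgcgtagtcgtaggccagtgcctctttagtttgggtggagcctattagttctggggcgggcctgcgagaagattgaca
Bnip3: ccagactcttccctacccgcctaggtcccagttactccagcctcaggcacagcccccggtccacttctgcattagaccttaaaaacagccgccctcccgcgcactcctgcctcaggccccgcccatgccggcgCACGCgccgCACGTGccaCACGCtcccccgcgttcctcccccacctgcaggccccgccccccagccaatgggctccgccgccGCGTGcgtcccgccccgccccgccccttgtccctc
Egln3: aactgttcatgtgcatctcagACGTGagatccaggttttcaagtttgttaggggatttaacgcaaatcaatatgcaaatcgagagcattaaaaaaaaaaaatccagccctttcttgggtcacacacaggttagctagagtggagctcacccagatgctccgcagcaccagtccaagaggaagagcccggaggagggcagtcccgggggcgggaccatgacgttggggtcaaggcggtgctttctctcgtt
Ankrd37: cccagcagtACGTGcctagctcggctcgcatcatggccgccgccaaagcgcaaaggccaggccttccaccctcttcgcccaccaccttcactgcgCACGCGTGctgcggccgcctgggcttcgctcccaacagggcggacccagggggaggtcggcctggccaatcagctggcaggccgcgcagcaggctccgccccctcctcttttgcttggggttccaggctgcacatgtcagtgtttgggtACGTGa

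ACGTG lay in 62.5% of 16 windows of the other HIF targets, in 32.1% of 28 windows of the enzymes and in 16.6% of all 32851 windows of the same length. GCGTG lay in 56.2%, 53.6% and 28.2% of the same windows. The *Ldha* window held 5 matches to ACGTG, counting both strands, the *Pgk1* and *Bnip3* windows 2 each, and the *Egln3* window 1. The *Pfkfb4* window held 1 GCGTG and no ACGTG. A match describes the letters of the window and is not evidence of binding.

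With all 8 samples, 5 of the 39 members were higher in KO at an adjusted p under 0.05 in the quasi-likelihood test of edgeR, adjusted by the Benjamini-Hochberg method across every gene tested, and none was lower. They were the enzymes *Pfkl* and *Gapdh*, the transporters *Slc2a1* and *Slc16a3*, and the flux regulator *Pfkfb4*. Among all 14451 genes tested, 8.62% were called, 5.11% higher and 3.5% lower. Without KO_1, 8 members were higher and none was lower, namely the same 5 with *Tpi1*, *Egln3* and *Bhlhe40*, where 17.2% of 14630 genes were called, 9.35% higher and 7.89% lower. All 39 members passed the filter on low counts in both fits. At an unadjusted p under 0.05 there were 17 members with all 8 samples, beside 25% of all genes, and 16 without KO_1, beside 31.7%.

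**Figure D1:**
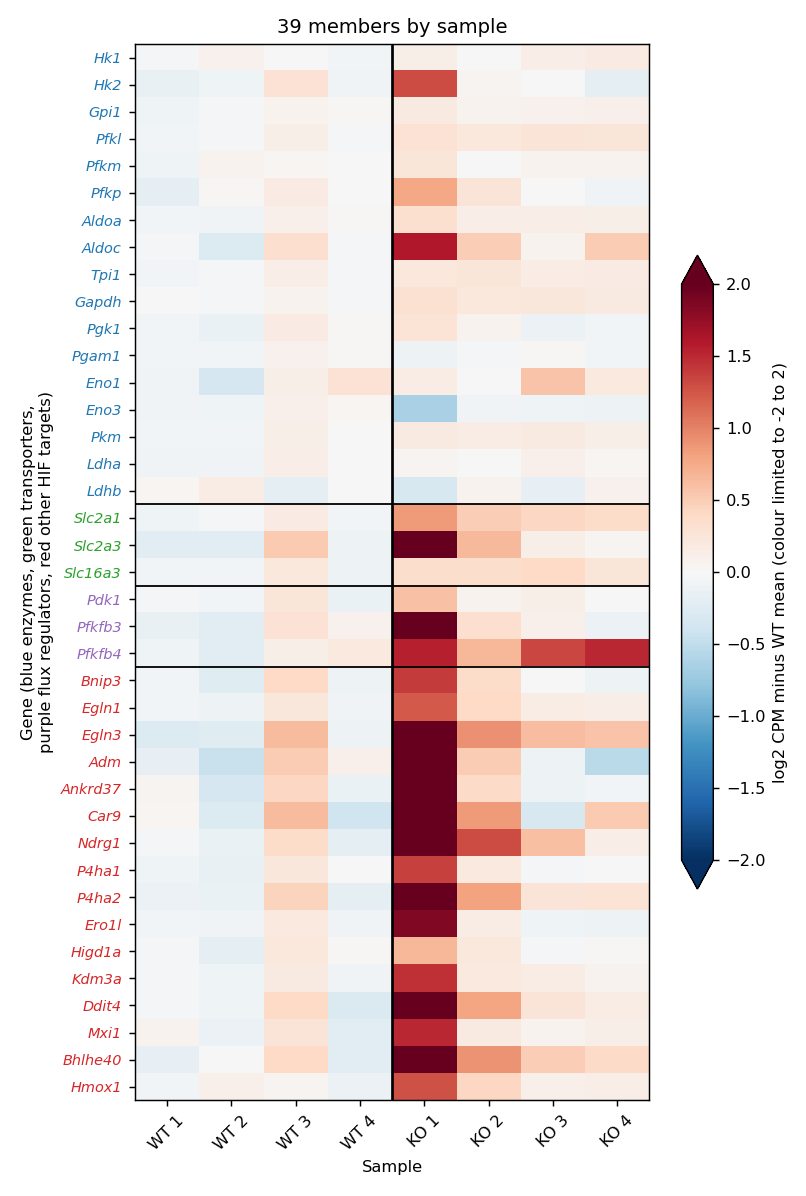
Heat map of the 39 members (rows, by list) in the 8 samples (columns). Colour gives log2 CPM minus the WT mean of the gene, limited to -2 to 2. The column of KO_1 is red over all 16 other HIF targets, whereas most enzymes are pale in all columns.

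The question of how much 1 replicate carries was asked of the enzymes and of the other HIF targets in turn. The median log2 fold change of the 17 enzymes was 0.15 with all 8 samples and 0.09 without KO_1, with 2 and 3 genes called. The median of the 16 other HIF targets was 0.86 with all 8 samples and 0.18 without KO_1, with 0 and 2 genes called. The median over all genes tested was -0.00 and -0.01, with 8.62% and 17.2% of genes called. In limma-voom the median of the other HIF targets with all 8 samples was 0.51. All 16 other HIF targets had a positive log2 fold change with KO_1 and 14 without it, while 14 of the 17 enzymes were positive with KO_1 and 12 without it. The count of 0 called genes among the other HIF targets stood beside 7 of 16 at an unadjusted p under 0.05 in edgeR's quasi-likelihood test, against 25% of all genes. Limma-voom also called 0, with 1 of 16 at an unadjusted p under 0.05, where 3541 of all 14451 genes were. DESeq2 gave no adjusted p for *Egln3*, *Ankrd37*, *Ndrg1*, *Ddit4* and *Bhlhe40*, so that these could not be called. It called 0 of the others, and 4 genes of the list had an unadjusted p under 0.05, where 3461 of all genes did. Without a filter on low counts edgeR called 3 of 16, beside 4.07% of 28458 genes, and 15 had an unadjusted p under 0.05. The median SE of a log2 fold change in this list was 0.40 with all 8 samples and 0.16 without KO_1, against 0.06 and 0.05 for the enzymes.

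Within the KO group, the difference between KO_1 and the mean of KO_2, KO_3 and KO_4 had a median of 1.79 on the log2 scale over the other HIF targets, from 0.61 to 4.19. The same difference had a median of 0.06 over the enzymes, from -0.57 to 1.35, and of 0.00 over all genes. It was above 1 for 15 of the 16 other HIF targets, for 2 of the 17 enzymes and for 3.61% of all genes. KO_1 was the highest of the 8 samples for 16 of 16 other HIF targets and 10 of 17 enzymes, where 28.4% of all genes had their highest value in KO_1. It was at least 1.5 times the next sample for 15 of 16 other HIF targets, all but *Higd1a*, and for the enzymes *Hk2* and *Aldoc*, beside 4.08% of all genes. It was the lowest sample for 3 of 17 enzymes, *Pgam1*, *Eno3* and *Ldhb*, beside 28.1% of all genes.

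The summed level of the other HIF targets was 2844, 1117, 908 and 887 CPM in KO_1 to KO_4 and 832, 781, 1058 and 817 CPM in WT_1 to WT_4. Only KO_1 and KO_2 were above WT_3, and KO_3 and KO_4 lay inside the WT range. The summed level of the enzymes was 19885, 18412, 19123 and 18315 CPM in KO and 16556, 16369, 18660.4 and 17671 CPM in WT. In this sum WT_3 lay among the KO samples, and the other WT samples lay below all of them.

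**Figure D2:**
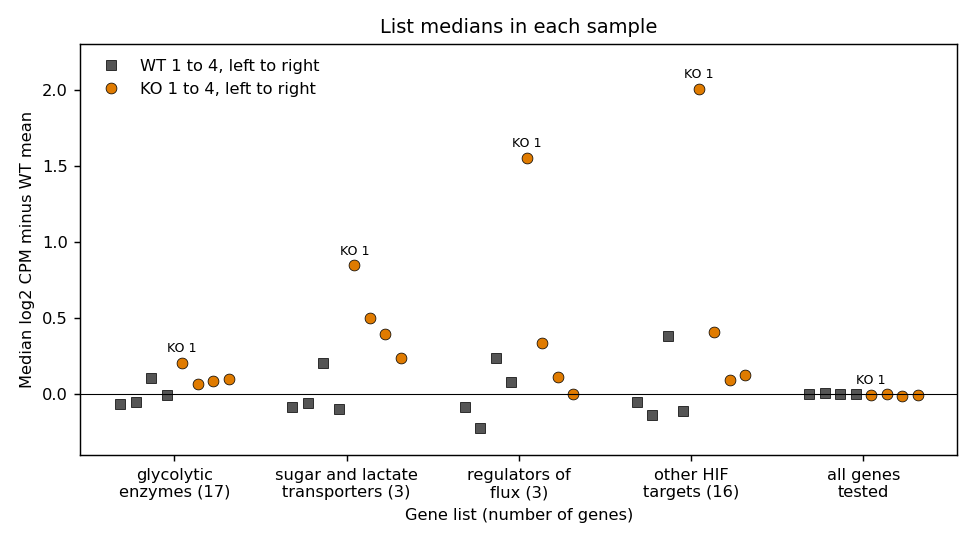
Median over the genes of each list of log2 CPM minus the WT mean (vertical axis), for the 4 WT samples (squares) and the 4 KO samples (circles), each in the order 1 to 4. For the other HIF targets KO_1 sits at 2.01, KO_2 at 0.41 and WT_3 at 0.38, while for the enzymes all 8 samples lie between -0.06 and 0.20.

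A second order of samples, seen after the values were examined, ran through the same genes. After KO_1, KO_2 was the highest KO sample for 16 of 16 other HIF targets and 5 of 17 enzymes, beside 36.8% of all genes. WT_3 was the highest WT sample for 15 of 16 other HIF targets, all but *Hmox1*, and for 13 of 17 enzymes, beside 25% of all genes. On the scale of log2 CPM minus the WT mean, the median of the other HIF targets was 2.01, 0.41, 0.09 and 0.13 in KO_1 to KO_4 and -0.05, -0.14, 0.38 and -0.11 in WT_1 to WT_4. KO_3 and KO_4 were thus below WT_3. The order of the KO samples differed from that of the erythroid markers, of which KO_2 had the lowest sum in KO. Other markers also moved with KO_1. The sum of 7 megakaryocyte and platelet genes was 239 CPM in KO_1, 98.0 to 112 CPM in the other KO samples and 72.2 to 93.4 CPM in WT, and that of 8 immediate early genes was 292 CPM in KO_1, 184 to 192 CPM in the other KO samples and 163 to 179 CPM in WT. The sum of the cardiomyocyte markers was lowest in KO_1, at 36905 CPM against 39636 to 41662 CPM in the other samples, although *Myh7* of this list was highest in KO_1. Epicardial markers summed to 221 CPM in KO_1 and 227 to 375 CPM in the other KO samples, against 150.3 to 223 CPM in WT, and yolk sac and liver markers to 9.16 CPM in KO_1, 1.73 to 3.55 CPM in the other KO samples and 1.76 to 2.88 CPM in WT, where 6 of the 7 were too low to test. Leukocyte markers summed to 18.1 CPM in KO_1, 11.04 to 11.95 CPM in the other KO samples and 7.16 to 7.503 CPM in WT, and 5 of the 8, *Ptprc* among them, were too low to test. The part of these cells in the values of KO_1 was not tested.

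**Figure D3:**
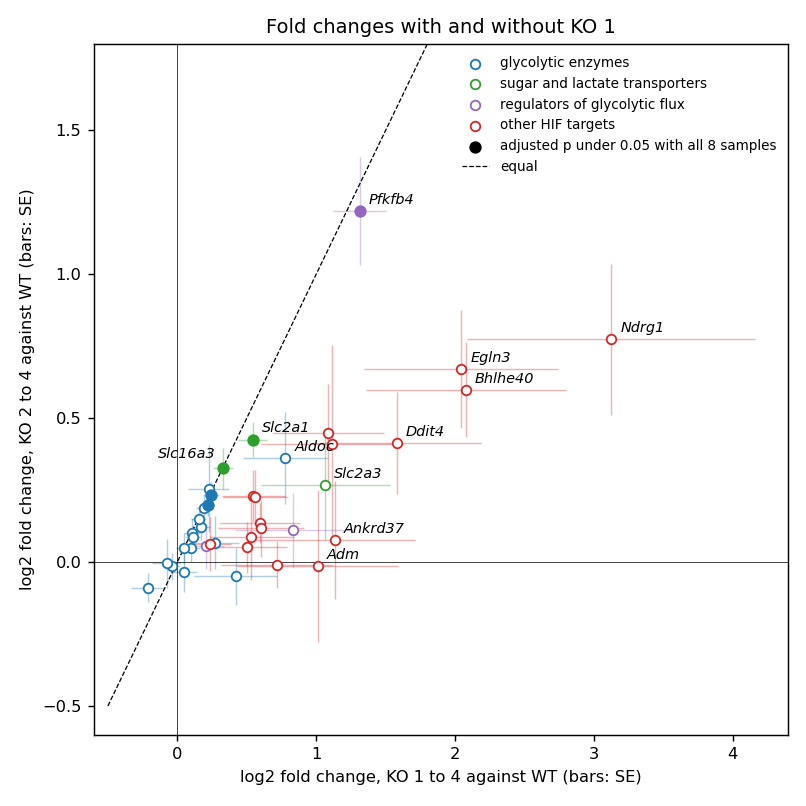
Log2 fold change of each member in KO against WT with all 8 samples (horizontal axis) and without KO_1 (vertical axis), with SE bars. The axes have unequal scales and the dashed line marks equal values. The other HIF targets (red) all lie to the right of the line, *Higd1a* close to it, from 0.24 to 3.12 with KO_1 and from -0.01 to 0.77 without it, whereas *Pfkfb4*, *Slc16a3* and most enzymes lie near the line.

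Among the enzymes, *Pfkl*, the liver-type phosphofructokinase (chromosome 10, 77986947 to 78010083), was at 601, 569, 587 and 579.9 CPM in KO_1 to KO_4 and 473, 484, 531 and 482 CPM in WT_1 to WT_4. Each KO sample was above each WT sample, and KO_1 was close to the other KO samples. The means were 584 ± 13.4 CPM (SD, n = 4) in KO and 493 ± 26.2 CPM (SD, n = 4) in WT. The log2 fold change was 0.25 (SE 0.05, edgeR adjusted p = 0.0183) with all 8 samples and 0.23 (SE 0.05, edgeR adjusted p = 0.00782) without KO_1. The call was lost in edgeR when KO_3, KO_4, WT_1, WT_2 or WT_4 was left out, at adjusted p = 0.0504, 0.0522, 0.0769, 0.0581 and 0.0687, while the fold change stayed between 0.23 and 0.28. *Pfkm* and *Pfkp*, the muscle and platelet types, were not called (log2 fold changes 0.10 and 0.27, edgeR adjusted p = 0.39 and 0.345). *Pfkp* was at 656 CPM in KO_1 and between 367 and 462 CPM in KO_2 to KO_4, against 335 to 431 CPM in WT. It had a log2 fold change of 0.07 without KO_1.

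*Gapdh* (chromosome 6, 125161715 to 125166467), whose enzyme makes NADH, was at 1109, 1041, 1052 and 1017 CPM in KO and 896, 876, 951 and 889 CPM in WT. The groups did not overlap. The means were 1055 ± 39.1 CPM in KO and 903 ± 33.4 CPM in WT (SD, n = 4 each), with a log2 fold change of 0.22 (SE 0.05, edgeR adjusted p = 0.0226) and of 0.20 (SE 0.04, edgeR adjusted p = 0.00788) without KO_1. Leaving out KO_3, WT_1, WT_2 or WT_4 took the adjusted p of *Gapdh* in edgeR to 0.0569, 0.0836, 0.0689 and 0.0788. *Tpi1*, triose-phosphate isomerase (chromosome 6, 124810586 to 124814296), was at 1404, 1447, 1349 and 1369 CPM in KO and 1167, 1181, 1329 and 1202 CPM in WT, again with no overlap, although WT_3 came close to KO_3. Its log2 fold change was 0.19 (SE 0.05) in both fits, with an edgeR adjusted p of 0.0606 with all 8 samples, 0.031 without KO_1 and 0.0459 without WT_3.

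Of the other 14 enzymes none was called in either fit. *Aldoa* (aldolase) and *Pkm* (pyruvate kinase) had KO values above all WT values in every sample, with log2 fold changes of 0.17 and 0.15 (edgeR adjusted p = 0.124 and 0.102) with all 8 samples and of 0.12 and 0.15 (edgeR adjusted p = 0.0881 and 0.0542) without KO_1. In all, 9 of the 39 members had each KO sample above each WT sample, beside 9.52% of all genes, and 0 had each below, beside 9.45%. *Hk2*, the inducible hexokinase, was at 557, 232, 226 and 198 CPM in KO and 203, 212, 275 and 215 CPM in WT. KO_1 alone was high, and the log2 fold change went from 0.42 (SE 0.30) to -0.05 (SE 0.10) without it. *Aldoc*, another aldolase, was at 25.9, 11.95, 8.92 and 12.1 CPM in KO, against 7.02 to 10.7 CPM in WT. KO_1 was by far the highest, and KO_2 and KO_4 were also above all WT samples. The log2 fold change of *Aldoc* went from 0.78 (edgeR adjusted p = 0.146) to 0.36 (edgeR adjusted p = 0.153) without KO_1, the largest of the 17 enzymes in that fit. *Ldha*, with 5 motif matches in its window, had a log2 fold change of 0.05 (SE 0.06, edgeR adjusted p = 0.638), and *Pgk1* went from 0.05 to -0.04 without KO_1. The remaining enzymes, *Hk1*, *Gpi1*, *Pgam1*, *Eno1*, *Eno3* and *Ldhb*, had log2 fold changes from -0.21 (*Eno3*) to 0.23 (*Eno1*). Counts of *Eno1* are uncertain because its near-identical copy *Eno1b* took between 7217 and 13327 counts per sample. The sum of both was 2555, 2502, 2814 and 2509 CPM in KO and 2271, 2171, 2599.9 and 2618 CPM in WT, with a log2 fold change of 0.10 (edgeR adjusted p = 0.425).

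The transporters gave 2 of the 5 calls. *Slc2a1*, which encodes the glucose transporter GLUT1 (chromosome 4, 119108711 to 119137983), was at 2140.0, 1680.4, 1589 and 1534 CPM in KO and 1124, 1169, 1334 and 1143 CPM in WT. KO_1 was the highest, but KO_2, KO_3 and KO_4 were also above all WT samples. The means were 1736 ± 276 CPM in KO and 1193 ± 96.1 CPM in WT (SD, n = 4 each). The log2 fold change was 0.54 (SE 0.10, edgeR adjusted p = 0.0133) with all 8 samples and 0.43 (SE 0.06, edgeR adjusted p = 0.00157) without KO_1. Without WT_1 or WT_4 its adjusted p was 0.0548 and 0.052. *Slc16a3*, which encodes the lactate exporter MCT4 (chromosome 11, 120948480 to 120960868), was at 554, 554, 571 and 512 CPM in KO and 417, 418, 502 and 406 CPM in WT. The groups did not overlap and KO_1 was in the middle of its group. Its log2 fold change was 0.33 (SE 0.07) in both fits, with an edgeR adjusted p of 0.0239 and 0.0136, and of 0.0648, 0.0881, 0.0735 and 0.0823 without KO_3, WT_1, WT_2 and WT_4. *Slc2a3*, the high-affinity transporter GLUT3, was at 795, 255, 177 and 168 CPM in KO and 140.3, 140.3, 234 and 152 CPM in WT. It was not called (log2 fold change 1.07 with KO_1 and 0.27 without it, edgeR adjusted p = 0.19 and 0.376), and the groups overlapped.

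Of the flux regulators, *Pfkfb4*, a bifunctional enzyme that sets the level of the phosphofructokinase activator fructose 2,6-bisphosphate (chromosome 9, 108991778 to 109032228), had the largest log2 fold change of the 39 members when KO_1 was left out. It was at 25.0, 13.5, 21.6 and 24.3 CPM in KO and 7.94, 7.16, 9.12 and 9.67 CPM in WT. KO_1 and KO_4 were nearly equal, KO_2 was the lowest of KO, and all KO samples were above all WT samples. The means were 21.1 ± 5.30 CPM and 8.47 ± 1.13 CPM (SD, n = 4 each), with a log2 fold change of 1.31 (SE 0.19, edgeR adjusted p = 0.00374) and of 1.22 (SE 0.19, edgeR adjusted p = 0.00241) without KO_1. *Pfkfb4* was called in each of the 8 fits that left out 1 sample. Its values in KO ran in the same order as the erythroid sum, with KO_1 highest, then KO_4, KO_3 and KO_2, and the part of blood cells in its difference was not tested. *Pfkfb3*, another such enzyme, was at 149 CPM in KO_1 and 34.8 to 47.4 CPM in KO_2 to KO_4, against 32.2 to 46.0 CPM in WT. *Pdk1*, a kinase that inhibits pyruvate dehydrogenase, was at 389 CPM in KO_1 and 260.0 to 281 CPM in KO_2 to KO_4, against 235 to 306 CPM in WT. Without KO_1 their log2 fold changes were 0.11 and 0.06, with edgeR adjusted p of 0.61 and 0.675.

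**Figure D4:**
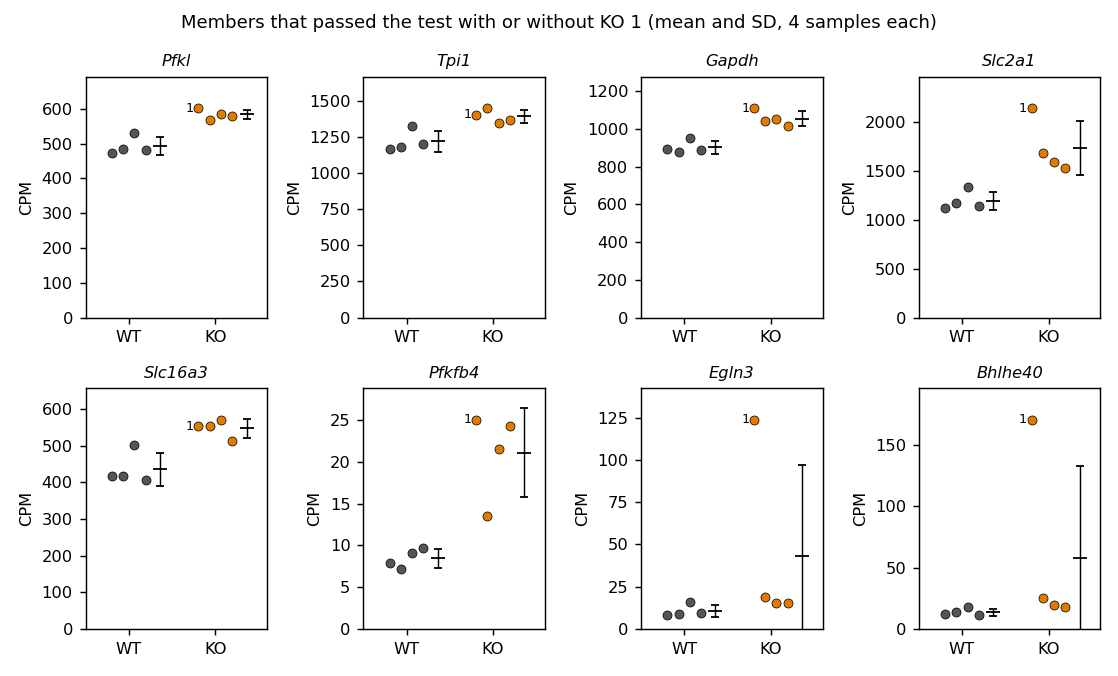
CPM (vertical axes, from 0) of the 8 members called with or without KO_1, for WT (grey) and KO (orange, KO_1 marked 1), with the mean and SD of 4 samples. The SD bars of *Egln3* and *Bhlhe40* in KO run below 0 and are cut at the axis. In *Pfkl*, *Gapdh*, *Tpi1* and *Slc16a3* KO_1 sits with its group, whereas in *Egln3* and *Bhlhe40* it is at 124 and 171 CPM with all other samples at or below 25.3 CPM.

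Among the other HIF targets, those of oxygen sensing included *Egln3*, a prolyl hydroxylase of the HIF alpha subunit (chromosome 12, 54178981 to 54203860). It was at 124, 19.1, 15.5 and 15.1 CPM in KO and 8.33, 8.52, 15.7 and 9.40 CPM in WT. KO_1 was 6.47 times the next sample, and WT_3 overlapped with KO_3 and KO_4. Its log2 fold change was 2.05 (SE 0.70, edgeR adjusted p = 0.103) with all 8 samples and 0.67 (SE 0.20, edgeR adjusted p = 0.0482) without KO_1. The mean of KO_2 to KO_4 was 16.6 ± 2.21 CPM (SD, n = 3), against 10.5 ± 3.505 CPM (SD, n = 4) in WT. *Egln1*, the main prolyl hydroxylase of this family, had a log2 fold change of 0.55 with KO_1 and 0.23 without it (edgeR adjusted p = 0.164 and 0.114).

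*Bhlhe40*, a transcriptional repressor (chromosome 6, 108660629 to 108666925), was at 171, 25.3, 19.1 and 17.6 CPM in KO and 11.99, 13.4, 17.9 and 11.6 CPM in WT. KO_1 was 6.75 times the next sample, and KO_4 lay just below WT_3. For *Bhlhe40* the log2 fold change was 2.08 (SE 0.72, edgeR adjusted p = 0.107) with all 8 samples and 0.60 (SE 0.17, edgeR adjusted p = 0.0335) without KO_1. The largest log2 fold change of all members with all 8 samples was that of *Ndrg1*, a gene of stress and growth arrest, at 127, 10.5, 6.40 and 4.62 CPM in KO and 4.05, 3.80, 5.42 and 3.65 CPM in WT. KO_1 was 12.05 times the next sample, KO_2 was second, and KO_4 was below WT_3. The log2 fold change of *Ndrg1* was 3.12 (SE 1.04, edgeR adjusted p = 0.0956) with KO_1 and 0.77 (SE 0.26, edgeR adjusted p = 0.0693) without it. *Egln3*, *Bhlhe40* and *Ndrg1* were each called with all 8 samples when no filter on low counts was set (edgeR adjusted p = 0.0394, 0.0421 and 0.0333).

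The remaining 12 were not called in either fit. *Ddit4*, an inhibitor of mTORC1 signalling, was at 196 CPM in KO_1, 26.6 to 41.7 CPM in KO_2 to KO_4 and 19.7 to 31.9 CPM in WT. *Ankrd37* was at 32.3 CPM in KO_1 and 5.18 to 7.31 CPM in KO_2 to KO_4, against 4.37 to 7.48 CPM in WT, and the peptide hormone gene *Adm* was at 46.2 CPM, 5.93 to 12.4 CPM and 6.38 to 12.4 CPM in the same samples. For *Ankrd37*, *Adm* and *Ero1l*, an oxidase of the endoplasmic reticulum, the log2 fold change fell from 1.14, 1.01 and 0.72 to 0.08, -0.01 and -0.01 when KO_1 was left out. *P4ha1* and *P4ha2*, the collagen prolyl hydroxylases, went from 0.50 and 1.09 to 0.05 and 0.45. *Bnip3*, a mitophagy receptor, *Kdm3a*, a histone demethylase, and *Mxi1*, an antagonist of MYC, went from 0.53, 0.59 and 0.60 to 0.09, 0.14 and 0.12. *Higd1a*, which was the only member of this list in which KO_1 was less than 1.5 times the next sample, went from 0.24 to 0.06. *Car9*, a carbonic anhydrase, was at 9.92 CPM in KO_1 and 1.49 to 3.76 CPM in the other samples.

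*Hmox1*, heme oxygenase, was the only one of the 16 whose KO samples were all above WT, at 48.7, 26.9, 21.7 and 22.1 CPM against 19.4, 21.6, 21.0 and 18.7 CPM in WT_1 to WT_4, with KO_3 and WT_2 nearly equal. Its log2 fold change was 0.56 with KO_1 and 0.23 without it (edgeR adjusted p = 0.174 and 0.129). Of all genes tested, 9.52% had each KO sample above each WT sample.

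Per kilobase of annotated exon, the most abundant members in WT were enzymes. *Ldha* was the highest at 1399 ± 95.4 CPM per kb (SD, n = 4), followed by *Aldoa* at 1106 ± 60.8, *Pkm* at 1056 ± 61.2 and *Pgk1* at 935 ± 83.6 CPM per kb. *Eno1* was at 616 ± 113 CPM per kb without the counts given to *Eno1b*, so that its place in this order is uncertain. *Aldoa* was above *Pkm* in each WT sample, while the ranges of both over the WT samples overlapped. *Slc2a1* was at 366 ± 29.5 CPM per kb. The highest of the other HIF targets was *Bnip3* at 112 ± 22.9 CPM per kb, and the lowest was *Car9* at 1.04 ± 0.383 CPM per kb. In KO_1 *Bnip3* reached 292 CPM per kb and *Ddit4*, at 13.96 ± 2.97 CPM per kb in WT, reached 112.

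Shares within families of related genes, per kilobase, set KO_1 apart in some families and not in others. *Hk2* made up 42.2% of *Hk1* and *Hk2* in KO_1, 22.5% ± 2.46 (SD, n = 3) in the other KO samples and 24.3% ± 2.71 (SD, n = 4) in WT. *Slc2a3* made up 23.4% of *Slc2a1* and *Slc2a3* in KO_1, against 9.26% ± 1.59 in the other KO samples and 10.2% ± 1.65 in WT. *Egln3* made up 33.7% of *Egln1* and *Egln3* in KO_1, 11.99% ± 0.243 in the other KO samples and 9.01% ± 1.71 in WT. By contrast, the *Ldhb* share of *Ldha* and *Ldhb* was 7.13% in KO_1, near the 7.38% of WT_3 and the 7.68% of KO_3. The *P4ha2* share of both *P4ha* genes was 63.2% in KO_1 and 60.1% in KO_2. In the pair *Pfkfb3* and *Pfkfb4* the *Pfkfb4* share was 43.2% ± 11.02 in the other KO samples, against 26.2% ± 1.71 in WT. It ran from 31.0% in KO_2 to 52.5% in KO_4. In KO_1 the share was 21.0%, below each WT sample (23.9% to 27.8%).

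The machinery of the pathway gave calls in both directions. Of 18 genes for HIF subunits, hydroxylases, the VHL ligase and cofactors, 2 were higher in KO (*Hif3a* and *Cited2*) and 2 lower (*Hif1a* and *Cited1*) with all 8 samples in edgeR, against 5.11% and 3.5% of all genes. Without KO_1, 3 were higher (*Arnt2* in addition) and 4 lower (*Epas1* and *Cul2* in addition), against 9.35% and 7.89% of all genes. *Hif1a*, the gene for the HIF-1 alpha subunit, was at 247, 287, 271 and 275 CPM in KO and 353, 371, 311 and 329.99 CPM in WT. The groups did not overlap, and KO_1, highest for the targets, was lowest for *Hif1a*. The log2 fold change was -0.34 (SE 0.07, edgeR adjusted p = 0.0167) with all 8 samples and -0.30 (SE 0.06, edgeR adjusted p = 0.00847) without KO_1, and without WT_1 or WT_2 its adjusted p was 0.0653 and 0.052. This is a level of mRNA, whereas oxygen acts on the protein.

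*Epas1*, the gene for the HIF-2 alpha subunit, was at 22.3, 17.01, 16.8 and 20.5 CPM in KO and 26.1, 26.1, 19.3 and 23.0 CPM in WT, with overlap (log2 fold change -0.31, edgeR adjusted p = 0.17, and -0.39 with adjusted p = 0.0478 without KO_1). *Hif3a*, the gene for an alpha subunit that can restrain HIF, was at 77.9, 40.4, 47.4 and 60.9 CPM in KO and 32.6, 36.7, 22.0 and 25.1 CPM in WT (log2 fold change 0.96, edgeR adjusted p = 0.0259, and 0.76 with adjusted p = 0.0154 without KO_1). *Arnt*, the common partner subunit, and *Vhl* were not called in either fit (log2 fold changes 0.14 and -0.02 with all 8 samples, and -0.03 and -0.12 without KO_1). *Cited2*, which competes with HIF-1 alpha for the cofactor p300, had a log2 fold change of 0.37 (edgeR adjusted p = 0.0423) and *Cited1* of -0.46 (edgeR adjusted p = 0.0453), and of 0.30 and -0.40 without KO_1 (edgeR adjusted p = 0.0319 and 0.0400). Of the 8 fits that left out 1 sample, *Hif3a* was called in 4, *Cited2* in 3 and *Cited1* in 1. *Hif3a*, *Arnt2*, *Cul2*, *Cited1* and *Cited2* were singled out after their values were seen. Endocardial and endothelial markers summed to 819 to 948 CPM in KO and 942 to 1026 CPM in WT, and their part in the lower *Hif1a* and *Epas1* was not tested.

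**Figure D5:**
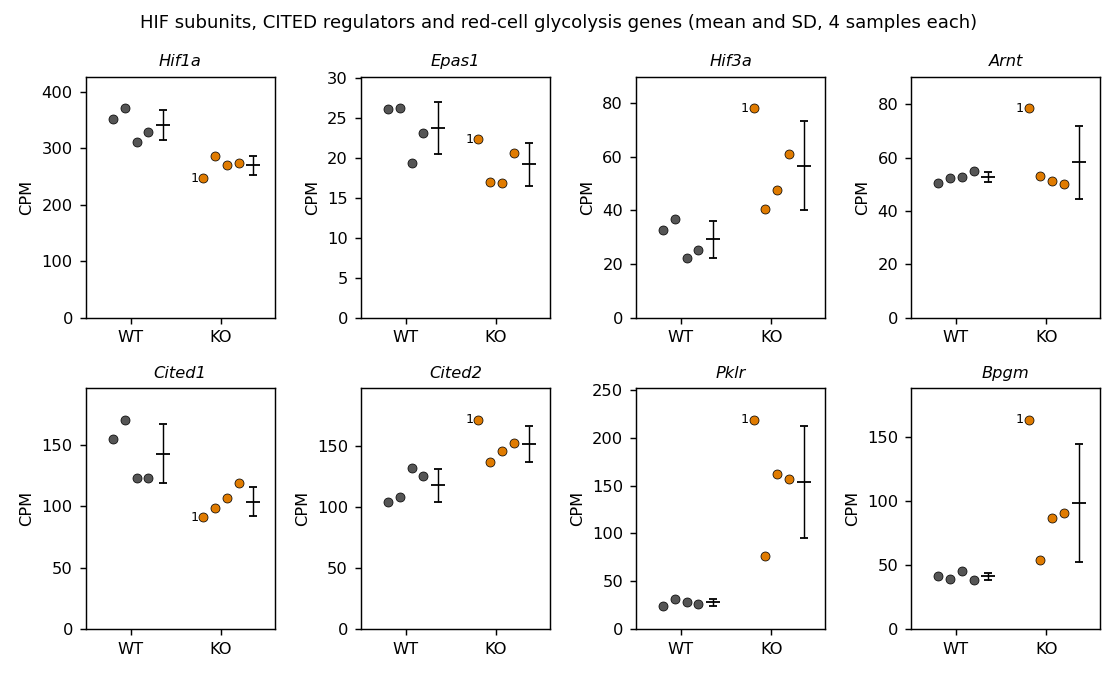
CPM (vertical axes, from 0) of HIF subunit genes, *Cited1*, *Cited2*, *Pklr* and *Bpgm* in WT (grey) and KO (orange, KO_1 marked 1), with the mean and SD of 4 samples. *Hif1a* lies lower in all KO samples, at 247 to 287 CPM, while KO_1 is the highest sample for *Hif3a*, *Arnt*, *Cited2*, *Pklr* and *Bpgm*.

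Of 23 other glycolysis and pyruvate genes that were tested, 4 were higher in KO and 1 lower in edgeR with all 8 samples, beside 5.11% and 3.5% of all genes, and 5 and 3 without KO_1, beside 9.35% and 7.89%. *Pklr*, the pyruvate kinase of liver and red cells, was at 219, 76.3, 162 and 157 CPM in KO and 24.2, 31.6, 28.6 and 26.2 CPM in WT. The groups did not overlap, and the KO samples stood nearly in the order of the erythroid sum, with KO_2 lowest. Its log2 fold change was 2.47 (SE 0.27, edgeR adjusted p = 0.00174), larger than that of any of the 17 enzymes, and 2.25 without KO_1. *Bpgm*, which makes the red-cell effector 2,3-bisphosphoglycerate and was singled out after its values were seen, had a log2 fold change of 1.26 (edgeR adjusted p = 0.021) with all 8 samples and 0.91 without KO_1 (edgeR adjusted p = 0.00332), and also had its lowest KO value in KO_2. *Pfkfb1* had a log2 fold change of 0.80 (edgeR adjusted p = 0.0152), and *Hkdc1*, a hexokinase-like gene, fell by 1.26 on the log2 scale (edgeR adjusted p = 0.00581), with 0.70 and -1.23 in the fit without KO_1 (edgeR adjusted p = 0.01196 and 0.00499). The part of red cells in *Pklr* and *Bpgm* was not tested.

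Of 40 further HIF targets that were tested, *Cited2* again among them, 6 were higher and 1 lower in KO in edgeR with all 8 samples, beside 5.11% and 3.5% of all genes, and 13 and 2 without KO_1, beside 9.35% and 7.89%. Their median log2 fold change was 0.43 with KO_1 and 0.16 without it. KO_1 was the highest of the 8 samples for 33 of the 40, beside 28.4% of all genes. *Vegfa*, the angiogenic growth factor and a classical HIF target, was at 388, 120.3, 106 and 101 CPM in KO and 95.2, 91.7, 109.7 and 91.7 CPM in WT. KO_1 was far above the rest, and KO_3 and KO_4 overlapped with WT_3. Its log2 fold change was 0.88 (SE 0.40, edgeR adjusted p = 0.207) with KO_1 and 0.17 (SE 0.08, edgeR adjusted p = 0.179) without it.

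Among the called genes of this list, *Tfrc*, the transferrin receptor, which red-cell precursors express strongly, was at 632, 439.8, 519 and 529 CPM in KO and 307, 301, 356 and 294 CPM in WT (log2 fold change 0.75, edgeR adjusted p = 0.00332, and 0.66 without KO_1). *Plin2*, a lipid droplet protein, and *Angptl4*, an inhibitor of lipoprotein lipase, had log2 fold changes of 0.97 (edgeR adjusted p = 0.00357) and 0.80 (edgeR adjusted p = 0.00462), and of 0.85 and 0.79 without KO_1. *Angptl4* was at 6.59 to 7.55 CPM in KO and 3.72 to 4.23 CPM in WT, and KO_1 lay within the range of the other KO samples. The chemokine gene *Cxcl12* was lower, at 27.0 to 38.4 CPM in KO and 47.6 to 52.8 CPM in WT, with a log2 fold change of -0.73 (SE 0.11, edgeR adjusted p = 0.00444) and of -0.86 without KO_1.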

How the data were processed

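Ventricles of mouse embryos at E9.5 were profiled by sequencing polyadenylated RNA in single reads. The authors deposited 1 table of expected counts per gene, estimated with RSEM 1.3.1 after trimming with cutadapt, on GRCm38 (per the submitters' processing notes), without scaling for depth or gene length. The aligner and the use of strand are not given in the sources used here. Reads that fit several genes are divided among these by RSEM, which leaves near-identical copies such as *Eno1* and *Eno1b* uncertain.

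The counts were rounded to whole numbers, and symbols were assigned to 53274 of 53465 genes by their identifiers. Samples were grouped by their labels, 4 WT and 4 KO, and 0 columns of per-sample values were left unused. Low genes were removed with filterByExpr, libraries were scaled by TMM, and groups were compared with edgeR 4.0.16 (quasi-likelihood test, Benjamini-Hochberg adjustment over all genes tested, threshold 0.05) in R 4.3.3. The SE is the ratio of the log2 fold change to the root of the F statistic. CPM are TMM-scaled, log2 CPM used a prior count of 2, and exon lengths come from the GENCODE M21 basic annotation. Tables and figures were made with Python 3.11.15. The tests across genes were tested on simulated data. With 4 samples per group, the precision is set by the spread between samples more than by counting error, except in genes with very few counts.

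Members and lists were chosen with earlier results of these data known. Values in every sample are given for members called in either fit. From the further lists *Hif1a*, *Epas1*, *Arnt*, *Vhl*, *Vegfa* and up to 8 genes with the smallest adjusted p were named, while *Nrg1* served as the check of the labels. Other genes were named after their values were seen. As alternatives, scaling by upper quartiles and by RLE factors, limma-voom (limma 3.58.1), DESeq2 1.42.0, no or a stricter filter on low counts, a table without hemoglobin and mitochondrial genes, a block for replicate number, and each sample left out in turn were run. The sum of *Eno1* and *Eno1b*, and the removal of hemoglobin and mitochondrial genes together with KO_1, were added after seeing the data.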

Additional observations from a re-analysis of the deposited data

Results flagged for a closer look

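In 17 of 86 groups of 4 samples, members and list medians together, 1 sample lay far from the other 3, with a gap to its nearest neighbour, as a share of the group's range, above the 95% limit of Dixon's test. Chance alone gives about 1 in 20, or 4.3 groups, and members that share a pattern are not independent. KO_1 was the far sample, and the highest, for *Hk2* (a gap of 0.845 of the range), *Aldoa* (0.915), *Egln3* (0.888), *P4ha1* (0.846), *Ero1l* (0.877), *Kdm3a* (0.912), *Mxi1* (0.932), *Bhlhe40* (0.842) and the median of the other HIF targets (0.833). KO_1 was the lowest for *Eno3* (0.963), whose enzyme is the muscle enolase, at 165 CPM against 243 to 247 CPM in the other KO samples. WT_3 was the far sample, and the highest, for *Slc2a3* (0.844), *Slc16a3* (0.862), *Egln1* (0.851), *P4ha2* (0.881), *Ero1l* (0.926), the median of the transporters (0.862) and the median of the other HIF targets (0.833). *Ero1l* was thus far in both groups, at 326 CPM in KO_1 and 84.7 to 100.1 CPM in the other KO samples, and at 103 CPM in WT_3 and 86.0 to 87.2 CPM in the other WT samples. No explanation was tested for either sample.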

How the results depend on the processing

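The 5 calls with all 8 samples rest on 4 samples per group. With 1 sample left out in turn, between 509 and 2523 genes were called, between 1 and 8 members, between 0 and 3 enzymes and between 0 and 2 other HIF targets, and the median log2 fold change ran from 0.09 to 0.19 for the enzymes and from 0.18 to 1.09 for the other HIF targets. The lowest counts of members (1, *Pfkfb4*) came without WT_1 or WT_4, and the highest without KO_1. The log2 fold change turned negative without KO_1 for *Hk2* (-0.0493 to 0.579 over the samples left out), *Pgk1* (-0.0356 to 0.105), *Adm* (-0.0136 to 1.301), *Ero1l* (-0.0088 to 0.909) and *Arnt* (-0.0327 to 0.207), and that of *Vhl* (-0.123 to 0.0277) turned positive without KO_2, KO_3 or KO_4.

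Scaling by upper quartiles or RLE factors, a filter of 10 counts in every sample and limma-voom each gave 5 members called, with 8.297% to 9.86% of all genes called, while DESeq2 called 4 enzymes (*Pkm* and *Tpi1* in addition) and 12.2% of all genes. Without hemoglobin and mitochondrial genes 6 members and 3 enzymes were called (*Tpi1* in addition), with 8.66% of all genes. Without a filter on low counts 8 members and 3 other HIF targets were called, with 4.07% of 28458 genes, and 15 of the 16 other HIF targets had an unadjusted p under 0.05. The median of the other HIF targets was 0.51 in limma-voom and 0.54 with a replicate block, against 0.86 in edgeR without one, and the cause was not tested. The labels number samples 1 to 4 in each group and name no pairing, and deviations of same-numbered samples correlated between -0.09 and 0.02. With a replicate block in the fit, 616 genes (4.26%), 3 members (*Slc2a1*, *Slc16a3* and *Pfkfb4*) and 0 enzymes were called, with an edgeR adjusted p of 0.0613 for *Pfkl* and 0.0702 for *Gapdh*.

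Of the alternatives added after seeing the data, *Eno1* and *Eno1b* summed without KO_1 gave 2527 genes, 8 members and 2 other HIF targets called, a median of 0.18 for the latter, and turned *Hk2* (-0.0493), *Pgk1* (-0.0356), *Adm* (-0.0136), *Ero1l* (-0.00881) and *Arnt* (-0.0327). Removing hemoglobin and mitochondrial genes without KO_1 gave 2491 genes, 9 members, 4 enzymes and 2 other HIF targets called, a median of 0.19 for the latter, and turned *Hk2* (-0.0403), *Pgk1* (-0.0268), *Ldhb* (0.00473), *Adm* (-0.00552) and *Arnt* (-0.0237). Depth bears most on *Car9*, with 22 to 39 counts in WT and thus the largest counting error.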
